A study of Sus scrofa with 9 samples.

Results

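Efferocytosis is the engulfment of dying cells, and 9 receptors and bridging molecules of this process were followed by name in RNA-seq data from the abdominal aorta of Tibetan minipigs, a small pig breed. The list was MERTK, AXL, TYRO3, GAS6, PROS1, MFGE8, STAB1, STAB2 and LRP1, chosen by gene name. Of the 9 genes, 8 had a row under their own name among the 21357 rows of the deposited table. Each of these 8 names had 1 row, and the 8 genes passed the filter on low values in every comparison. No row carried the name STAB2, which is taken up separately among the scavenger receptors.

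The 9 libraries fell into 3 groups of 3. NC pigs were normal controls on a normal diet for 24 weeks, H24 pigs had atherosclerosis after a high fat diet for 24 weeks, and H8 pigs, labelled hypercholesterolemia, had the high fat diet for 8 weeks. For NC and H24, the study's methods describe male pigs aged 3 to 4 months at purchase, a basal feed with or without added shortening, cholesterol and egg yolk powder, and 3 pigs drawn at random from each group. H8 is known from the sample labels alone, and the sex and age of its pigs are not given in the sources used here. No 8-week control group was analysed here. In H8/NC the high fat diet therefore cannot be told apart from the shorter time on diet or a difference in age. In H24/H8 the length of the diet and the age of the pigs cannot be told apart. The labels do not say that the replicates of H8 came from separate pigs, and its p-values measure the spread between these libraries.

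An apoptotic cell displays phosphatidylserine, a lipid normally kept on the inner face of the membrane. MERTK, AXL and TYRO3, the TAM family of receptor tyrosine kinases, do not touch this lipid themselves. The vitamin K-dependent proteins GAS6 and PROS1 bind both it and a TAM receptor, while MFGE8 links it to integrins. Stabilins bind phosphatidylserine directly, and LRP1 takes up cells marked by calreticulin or complement proteins. In arteries, macrophages and smooth muscle cells clear dying cells in this way, and failure of this clearance is known for leaving a necrotic core in the plaque.

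Library totals ran from 44094263 to 75787978 counts, and the 8 genes had between 765 and 112835 counts in a library. A signal of 3 counts, taken as the floor, corresponded to 0.0396 to 0.0680 CPM (counts scaled to library size), which covers counting error only. H24 replicate 3 stood apart. Pearson's r between libraries, taken across genes that are not independent of each other, was 0.971 to 0.974 within NC, 0.958 to 0.971 within H8 and 0.889 to 0.956 within H24. Its cell type markers differed as well. The summed FPKM of 7 smooth muscle markers, which mark the main cell of the vessel wall, was 11487 to 13602 in NC, 9985 to 13381 in H8, and 7895, 11691 and 1722 in H24 replicates 1, 2 and 3. The summed FPKM of 8 macrophage markers was 13.8 to 14.9 in NC, 76.2, 12.2 and 41.1 in H8, and 132, 76.7 and 903 in H24. The extraction text in the labels speaks of adipose tissue although the tissue field names the aorta. The 5 adipocyte markers summed to 89.7 to 157 FPKM in NC, 49.1 to 140 in H8 and 57.2 to 106 in H24. Of them, 3 of 4 tested were called lower in H8/NC, 1 of 5 was called higher in H24/NC and 4 of 5 were called higher in H24/H8. FABP4 made up most of each sum, at 47.9 FPKM or more in every library. ADIPOQ was at 4.44 to 14.6 FPKM in NC, 0.106 or less in H8, and 7.24, 0.0705 and 0.416 in H24. PLIN1 was at 3.59 to 16.5 in NC, 0.0823 or less in H8, and 5.58, 0.134 and 0.213 in H24. CIDEC was at 1.76 to 4.06 in NC, 0.464 to 0.994 in H8 and 2.31 to 8.15 in H24, and LEP at 0.990 or less throughout. The part of adipose tissue in the differences below was not tested.

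The 8 genes lie on 7 chromosomes of Sscrofa11.1, the build named in the study's methods. MERTK (ENSSSCG00000008103) is at chr3:44349403-44483647 on the minus strand, AXL (ENSSSCG00000038806) at chr6:49245802-49277917 on the plus strand and TYRO3 (ENSSSCG00000004744) at chr1:129811546-129830209 on the minus strand. GAS6 (ENSSSCG00000009565) is at chr11:78849088-78881970 on the minus strand, PROS1 (ENSSSCG00000025463) at chr13:165914997-165995755 on the plus strand and MFGE8 (ENSSSCG00000001834) at chr7:54539614-54571637 on the minus strand. STAB1 (ENSSSCG00000011443) is at chr13:34632247-34664420 and LRP1 (ENSSSCG00000000423) at chr5:22436202-22518418, both on the plus strand. The table's own gene ontology terms place MERTK, AXL, TYRO3, GAS6 and MFGE8 under apoptotic cell clearance, while PROS1, STAB1 and LRP1 do not carry that term.

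FPKM, the fragments of a transcript scaled to its length and to library size, is a level per length, so the genes can be set side by side. In NC, MFGE8 was the most abundant of the 8 at 318 ± 89.7 FPKM (mean ± SD, n = 3 here and below), and GAS6 followed at 150 ± 34.0. LRP1 at 69.2 ± 4.66 and AXL at 65.4 ± 7.15 came next, and their ranges overlapped. PROS1 stood at 23.2 ± 3.18, well above MERTK at 4.95 ± 0.817 and STAB1 at 4.54 ± 0.597, whose ranges overlapped, and TYRO3 was lowest at 3.10 ± 0.367. The normal aorta thus held far more transcript for the secreted ligands than for MERTK, TYRO3 or STAB1. The order was kept in H8, except that MERTK separated from STAB1 and the ranges of STAB1 and TYRO3 met. In H24, the ranges of MFGE8, GAS6 and LRP1 overlapped in turn, AXL and PROS1 followed, and STAB1 moved above MERTK by mean, although their ranges overlapped.

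**Figure D1:**
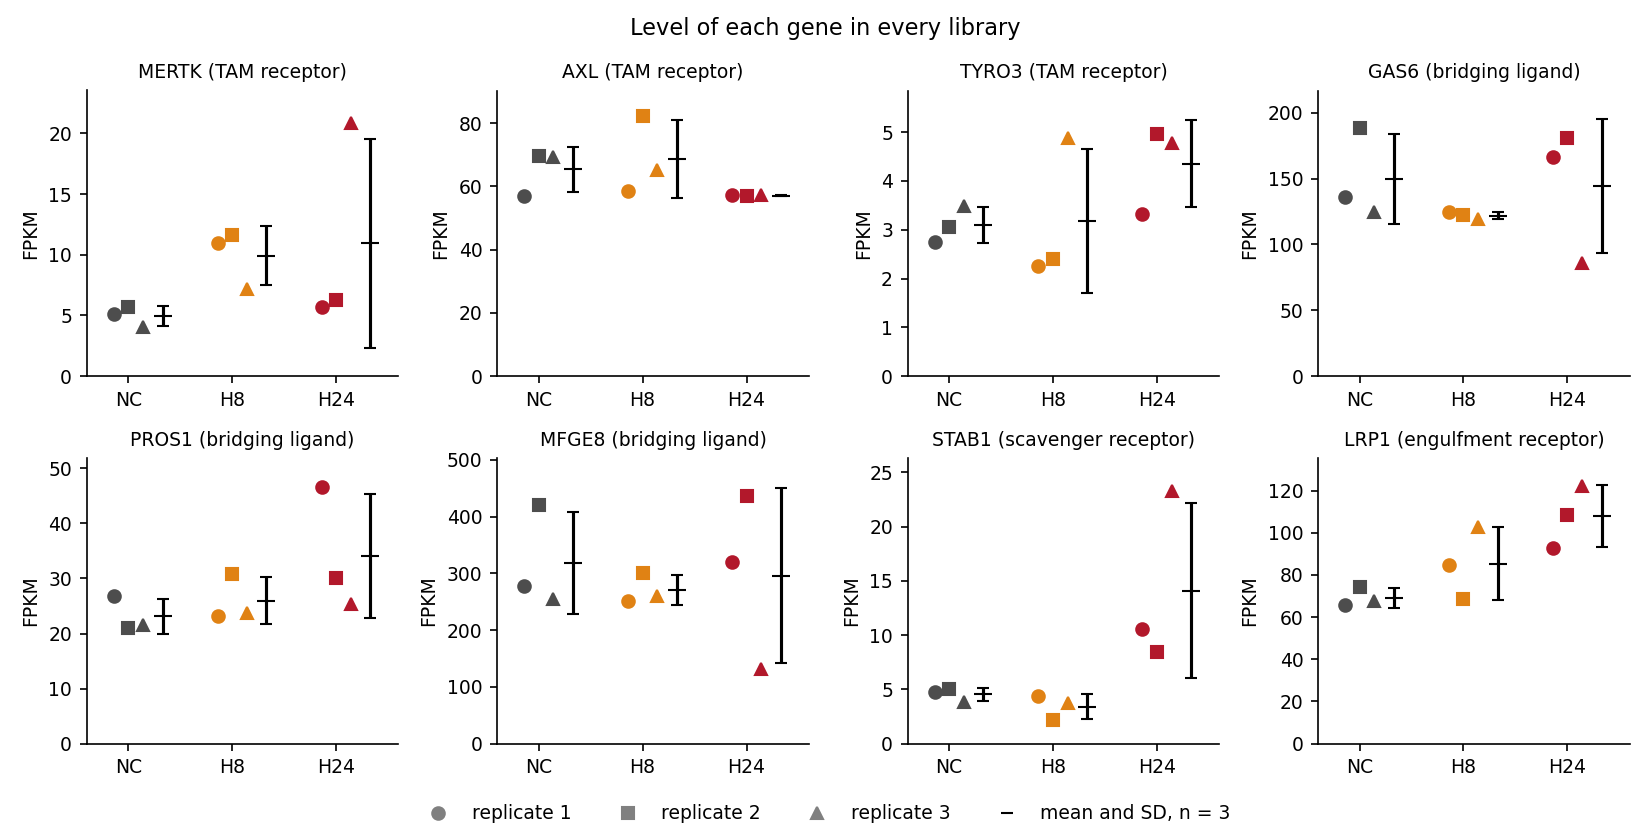
Levels of the 8 genes by library, in FPKM on linear axes that start at 0. Circles, squares and triangles are replicates 1, 2 and 3, and the bar beside each group is the mean with SD (n = 3). STAB1 lies at 8.42 or above in the 3 H24 libraries and at 5.001 or below in the other 6, MERTK lies at 7.16 or above in the 3 H8 libraries, and H24 replicate 3 carries the highest MERTK (20.9) and STAB1 (23.3) and the lowest GAS6 (85.9) and MFGE8 (131).

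MERTK was called up-regulated in H8 against NC, while AXL and TYRO3 were not called in any comparison. A gene was called as the study did, when its log2 fold change was over 1 or under −1 with a p-value under 0.05 before adjustment. The test was edgeR's quasi-likelihood test on the counts, and Benjamini-Hochberg adjusted p-values over all genes tested are given beside it. Exact two-sided permutation tests of the FPKM means are added for the largest differences, where 3 libraries against 3 cannot give a p below 0.1.

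MERTK, the main TAM receptor of macrophages for apoptotic cells, was at 5.12, 5.67 and 4.07 FPKM in NC replicates 1 to 3. It was at 10.9, 11.7 and 7.16 in H8, and at 5.67, 6.29 and 20.9 in H24. All H8 libraries lay above all NC libraries, whereas in H24 replicates 1 and 2 stayed near NC and only replicate 3 lay far above. The H8/NC difference was 1.15 on the log2 scale (SE 0.26, 95% interval 0.54 to 1.76), a 2.22-fold change, with p = 0.00277 and adjusted p = 0.187 by edgeR and an exact permutation p = 0.1. In H24/NC it was 1.12 (SE 0.53, 95% interval −0.12 to 2.37), with p = 0.0708 and adjusted p = 0.411 by edgeR and an exact permutation p = 0.2, and it was not called. Without H24 replicate 3 the H24/NC difference was 0.25, and the mean of the 2 H24 libraries left was 5.98 FPKM against 4.95 in NC. H24/H8 gave −0.07 with all libraries (adjusted p = 0.965) and −0.91 without H24 replicate 3 (adjusted p = 0.405). The H8/NC call also rested on H8 replicate 2, since without that library the difference was 0.94, below the fold threshold.

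In tissue RNA, more cells that express a gene and more RNA per cell cannot be told apart. The macrophage marker sum moved with MERTK in H24 replicate 3, at 903 FPKM against 76.7 and 132 in the other H24 libraries. In H8 it did not follow the same order, because H8 replicate 2 had the highest MERTK of its group (11.7 FPKM) with a macrophage marker sum of 12.2, not above the 13.8 to 14.9 of NC. Of the 6 macrophage markers tested in H8/NC, 3 were called higher, and of the 8 tested in H24/NC all were, or 6 of 7 without H24 replicate 3. Neutrophil markers summed to 0.244 to 0.378 FPKM in NC, 2.27 to 4.36 in H8 and 4.59 to 50.1 in H24, highest in H24 replicate 3, and the 1 tested in H8/NC and both tested in H24/NC were called higher. These sums were mostly CSF3R, at 0.232 to 0.301 FPKM in NC, 2.21 to 4.32 in H8 and 4.55 to 46.8 in H24. MMP8 did not rise, at 0.132 in NC replicate 3 and 0.110 or less in every other library. S100A12 was at 3.28 in H24 replicate 3 and 0.128 or less elsewhere, and CXCR2 had no row. The 5 fibroblast markers summed to 2393 to 3097 FPKM in NC, 3694, 5771 and 4951 in H8, highest in the library with the highest MERTK of its group, and 2482 to 3141 in H24, with 1 of 5 called higher in H8/NC and 2 of 5 in H24/NC. The part of these cell types in the MERTK difference was not tested.

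AXL, a TAM receptor found also on smooth muscle cells and fibroblasts and bound by GAS6, was the most abundant of the trio. Its level was 57.1, 69.6 and 69.4 FPKM in NC, 58.4, 82.3 and 65.1 in H8, and 57.2, 56.9 and 57.1 in H24. The H24 libraries were almost equal, with an SD of 0.174 FPKM, and included the library poor in smooth muscle markers. All of them lay below all H8 libraries, but the log2 difference of −0.46 in H24/H8 did not pass (95% interval −1.09 to 0.17, adjusted p = 0.458). H24/NC was −0.22 (95% interval −0.72 to 0.28) and H8/NC was 0.22 (95% interval −0.28 to 0.72), so a change of AXL beyond 2-fold in either direction lay outside these intervals.

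TYRO3, the TAM receptor best known from the nervous system, was the scarcest of the 8 genes in NC. It was at 2.76, 3.05 and 3.49 FPKM in NC, at 2.25, 2.41 and 4.88 in H8, and at 3.33, 4.95 and 4.78 in H24. H24 replicates 2 and 3 were above every NC library and replicate 1 was within their range. The log2 differences were 0.47 in H24/NC (95% interval −0.16 to 1.11, adjusted p = 0.493) and 0.16 in H8/NC (95% interval −0.56 to 0.88, adjusted p = 0.845).

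Set against each other, the TAM receptors shifted in proportion. MERTK made up 7.88%, 7.25% and 5.28% of the summed TAM receptor FPKM in NC, 15.3%, 12.1% and 9.27% in H8, and 8.56%, 9.23% and 25.2% in H24. Every library on the high fat diet had a larger MERTK share than every NC library, by a small margin in H24 replicate 1. AXL still made up 69.0% to 90.2% of the sum in every library. The AXL to MERTK ratio was 11.15 to 17.1 in NC, 5.35 to 9.10 in H8 and 2.74 to 10.1 in H24. No exact permutation test of these shares could pass 0.05 with 3 libraries against 3.

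**Figure D2:**
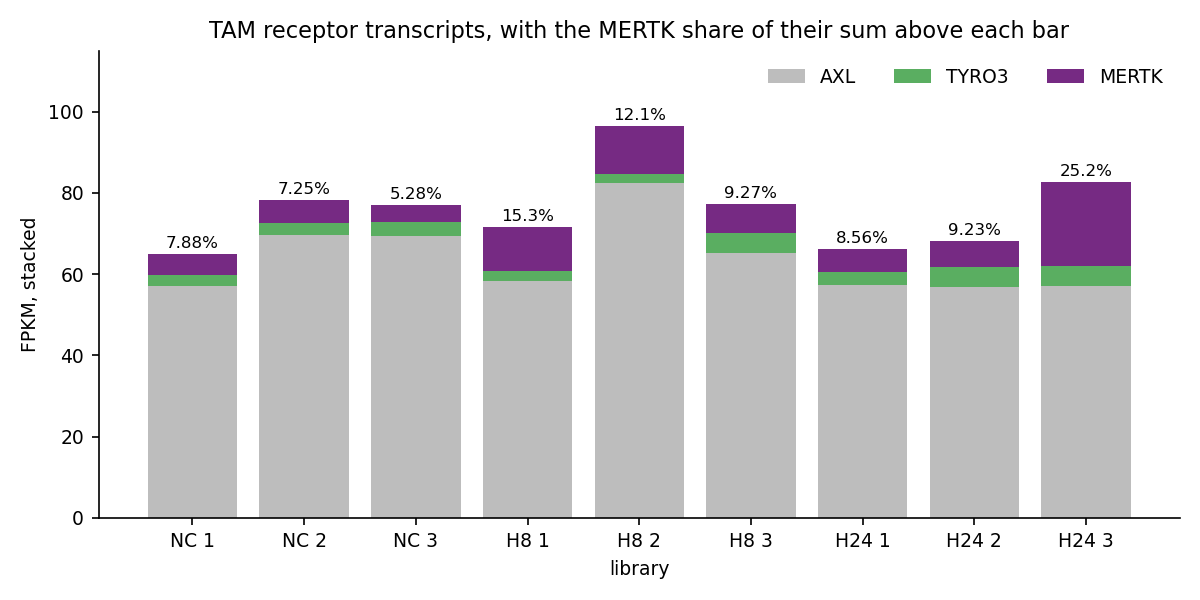
Stacked FPKM of AXL (grey), TYRO3 (green) and MERTK (purple) in each of the 9 libraries, with the MERTK share of the sum above each bar. AXL is the largest part in every bar, and the MERTK share is 5.28% to 7.88% in NC, 9.27% to 15.3% in H8 and 8.56% to 25.2% in H24.

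None of the bridging ligands was called in any comparison. GAS6, the ligand that binds all TAM receptors, was at 136, 188 and 125 FPKM in NC, at 125, 122 and 119 in H8, and at 166, 181 and 85.9 in H24. In FPKM, which lacks the TMM scaling of the test, the H8 libraries were close to each other and near or below the lowest NC library. H24 replicate 3 was the lowest of all 9. The log2 differences were −0.08 in H24/NC (95% interval −0.92 to 0.75, adjusted p = 0.938) and −0.16 in H8/NC (95% interval −0.64 to 0.32, adjusted p = 0.758). Without H24 replicate 3 the sign of H24/NC turned to 0.18.

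PROS1, protein S, an anticoagulant that also binds MERTK and TYRO3, was at 26.8, 21.1 and 21.6 FPKM in NC, at 23.2, 30.9 and 23.8 in H8, and at 46.7, 30.1 and 25.3 in H24. H24 replicates 1 and 2 and H8 replicate 2 exceeded all NC libraries, and H24 replicate 3 lay inside the NC range. H24/NC was 0.53 on the log2 scale (95% interval −0.10 to 1.15, adjusted p = 0.440), or 0.70 without H24 replicate 3 (adjusted p = 0.293), and H8/NC was 0.32 (adjusted p = 0.503). GAS6 exceeded PROS1 by 5.07 to 8.94 times in NC, by 3.95 to 5.37 times in H8 and by 3.39 to 6.001 times in H24, with overlapping ranges.

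MFGE8, which smooth muscle cells and macrophages secrete, was at 278, 421 and 255 FPKM in NC, at 250, 300 and 260 in H8, and at 320, 436 and 131 in H24. It had the highest mean of the list in every group, and H24 replicate 3 had the lowest level of the 9 libraries, as for GAS6. H24/NC was −0.13 (95% interval −1.25 to 0.98, adjusted p = 0.928), turning to 0.23 without H24 replicate 3, and H8/NC was −0.10 (adjusted p = 0.895). The low MFGE8 and GAS6 of H24 replicate 3 stood beside its smooth muscle marker sum of 1722 FPKM, the lowest of the 9, whose part in them was not tested. Of 7 smooth muscle markers, 0 were called in H24/NC.

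STAB1 gave the clearest difference of the list, with higher levels in H24 than in either other group. STAB1, or stabilin 1, is a scavenger receptor of macrophages and sinusoidal endothelium that binds phosphatidylserine. Its level was 4.75, 5.001 and 3.87 FPKM in NC, 4.37, 2.19 and 3.70 in H8, and 10.5, 8.42 and 23.3 in H24. Every H24 library lay above the other 6, and H8 overlapped NC at its lower end. H24/NC was 1.61 on the log2 scale (SE 0.41, 95% interval 0.64 to 2.58), a 3.06-fold change with p = 0.00570 and adjusted p = 0.161 by edgeR and an exact permutation p = 0.1. H24/H8 was 1.87 (SE 0.43, 95% interval 0.85 to 2.89), with p = 0.00336 and adjusted p = 0.336 by edgeR and again an exact permutation p = 0.1. H8/NC was −0.29 (95% interval −0.84 to 0.26, adjusted p = 0.605).

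The STAB1 calls were kept without H24 replicate 3, at a log2 difference of 1.03 in H24/NC and 1.31 in H24/H8, and the mean of the 2 H24 libraries left was 9.48 FPKM. They were kept as well without any other single library. The macrophage marker sum moved with STAB1 in H24, where it was 76.7 or more in every library against 14.9 or less in NC. H8 replicate 1 had a sum of 76.2 and a STAB1 level of 4.37 FPKM, inside the NC range, while H24 replicate 2 had a sum of 76.7 and a STAB1 level of 8.42. The 6 endothelial markers summed to 56.4 to 145 FPKM in NC, 39.4 to 67.3 in H8 and 63.7 to 106 in H24, with 0 of 6 called in any comparison. Markers of lymphatic or sinusoidal endothelium summed to 2.77 to 8.23 FPKM in NC, 4.39 to 6.91 in H8 and 9.60 to 15.03 in H24, where 1 of 3 tested was called higher against NC. The largest part of the H24 sums was CCL21, at 5.59, 8.49 and 12.6 FPKM against 0.954 to 3.07 in NC. In H8 CCL21 was at 5.89, 2.55 and 1.49, so that H8 and H24 overlapped. LYVE1 was at 2.90, 2.20 and 0.935 in H24 and 1.25 to 3.62 in NC, and FLT4 at 1.03 to 1.46 in H24 and 0.206 to 1.80 in NC. PROX1, which marks lymphatic endothelium, was at 0.107 FPKM or less in every library. T cell markers summed to 0.165 to 0.362 FPKM in NC, 0.655 to 0.865 in H8, and 3.21, 17.1 and 13.8 in H24. In H24 replicate 2 the sum was mostly CD3E, at 15.8 FPKM, with each other T cell marker at 0.532 or less. Called higher were 4 of 5 in H24/NC, or 2 of 4 without H24 replicate 3, 1 of 2 in H8/NC and 5 of 5 in H24/H8. The part of these cell types in the STAB1 difference was not tested.

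STAB1 shares 5172 bases with NT5DC2, a gene on the opposite strand at chr13:34659249-34679535, and whether the counting used strand is not stated. NT5DC2 was at 9.71, 7.78 and 5.99 FPKM in NC, at 11.96, 19.9 and 13.6 in H8, and at 10.8, 13.7 and 23.6 in H24. Reads from the shared bases could not be assigned with certainty. The 2 genes differed in sign in H8/NC, where the log2 difference was 1.11 for NT5DC2 and −0.29 for STAB1, while in H24/NC it was 1.02 for NT5DC2 and 1.61 for STAB1.

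LRP1, a large receptor for lipoproteins, proteases and dying cells found on smooth muscle cells and macrophages, was at 65.5, 74.5 and 67.6 FPKM in NC. It was at 84.9, 68.5 and 103 in H8, and at 92.8, 109 and 122 in H24. Every H24 library lay above every NC library, and H8 replicates 1 and 3 did too. H8 replicate 2 fell inside the NC range in FPKM. It had the lowest TMM factor of all libraries (0.862), so its place against NC depends on the scale. H24/NC was 0.62 (SE 0.26, 95% interval 0.0062 to 1.23), a 1.54-fold difference with p = 0.0483 and adjusted p = 0.356 by edgeR and an exact permutation p = 0.1, below the fold threshold of a call. H8/NC was 0.43 (95% interval 0.02 to 0.84, adjusted p = 0.316) and H24/H8 was 0.17 (adjusted p = 0.826). Leaving out H24 replicate 3, with its few smooth muscle markers, H24/NC was 0.52.

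STAB2, the close relative of STAB1 known from liver and lymph node sinuses, had no row of its own name. A row without a gene symbol that the table describes as stabilin 2 (ENSSSCG00000000854, chr5:80694226-80858598, minus strand) had 2 counts in NC replicate 3, 15 in H8 replicate 3, 2 in H24 replicate 1 and 0 in the other 6 libraries. A count of 0 allows up to 3 counts in a library. The 15 counts equalled 0.0216 FPKM, so the row fell below the filter and was not tested. A difference in STAB2 was not detectable at this depth.

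Counted over the list, 1 of 8 genes was called up-regulated in each comparison and 0 were called down-regulated. In H24/NC the called gene was STAB1, against 9.95% of all 14828 genes tested called up-regulated and 1.52% called down-regulated. In H8/NC it was MERTK, against 5.11% up-regulated and 2.27% down-regulated among 14336 genes. In H24/H8 it was STAB1, against 7.22% up-regulated and 3.05% down-regulated among 14788 genes. A count of 1 in 8 is close to these background shares and is not read as a property of the list.

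In FPKM, without the TMM scaling, the groups did not overlap for STAB1 and LRP1 in H24/NC, both higher, where 12.8% of all genes lay wholly higher and 7.80% wholly lower. They did not overlap for MERTK in H8/NC, where 6.91% lay wholly higher and 15.9% wholly lower. In H24/H8 they did not overlap for STAB1, which was higher, and AXL, which was lower, where 15.5% of all genes lay wholly higher and 6.31% wholly lower. The median log2 difference of the 8 genes was 0.50 in H24/NC, 0.19 in H8/NC and 0.12 in H24/H8, beside 0.01, 0.01 and 0.04 over all genes tested.

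By the adjusted threshold, an adjusted p under 0.05 with the same fold change, 0 of the 8 genes passed in each comparison by edgeR. Across all genes, 0% passed in H24/NC, 0.0279% in H8/NC and 0.0135% in H24/H8, while 2055 of the 14828 genes in H24/NC had an unadjusted p under 0.05. DESeq2 passed 954 genes (6.43%) in H24/NC, 616 (4.30%) in H8/NC and 650 (4.40%) in H24/H8 by the adjusted threshold. It passed STAB1 in H24/NC (adjusted p = 0.00692) and in H24/H8 (adjusted p = 0.00526), and MERTK in H8/NC (adjusted p = 0.00668).

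**Figure D3:**
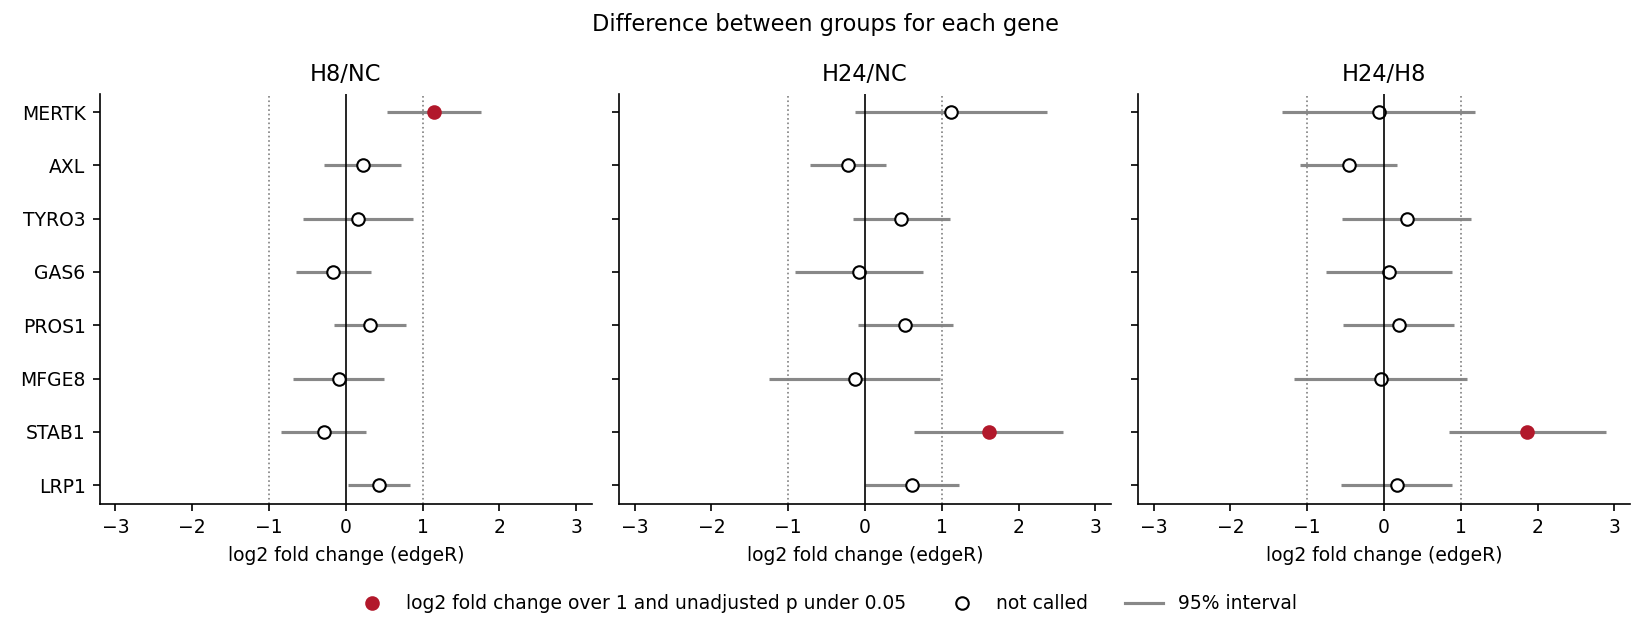
Log2 fold change of each gene from edgeR in H8/NC, H24/NC and H24/H8, with 95% intervals as grey lines and dotted lines at 1 and −1. Filled red points are called: MERTK in H8/NC (1.15) and STAB1 in H24/NC (1.61) and H24/H8 (1.87), and the other 21 points are open.

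The wider clearance pathway was followed with 77 other genes in 7 lists. By the same thresholds, 30 of the 67 tested were called higher and 0 lower in H24/NC, where 9.95% of all genes were called higher, and 23 of 67 were higher without H24 replicate 3, where 6.49% of all genes were. Of these 23, 17 passed the adjusted threshold, as did 2.10% of all genes tested without that library. In H8/NC, 17 of 66 were higher and 1 was lower, where 5.11% of all genes were called higher. In H24/H8, 21 of 67 were higher, against 7.22% of all genes, and 4 without H24 replicate 3, against 3.75% of all genes. Those 4 were CD14, ABCA1, NR1H3 and UCP2, named after their values were seen.

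Other engulfment receptors were called higher in 7 of 13 tested in H24/NC and in 4 of 12 in H8/NC. OLR1, the lectin-like receptor for oxidized LDL, was at 2.05 to 2.88 FPKM in NC, at 4.15 to 9.48 in H8 and at 11.5 to 28.0 in H24, with a log2 difference of 2.89 in H24/NC (adjusted p = 0.129). Its groups were in the order NC, H8, H24 without overlap. HAVCR2, or TIM-3, a phosphatidylserine receptor and immune checkpoint, was higher by 5.10 and MSR1, a scavenger receptor of macrophages, by 5.503 (adjusted p = 0.132 for both). Both were near NC in H8 replicate 2, at 0.467 FPKM for HAVCR2 and 0.383 for MSR1, the H8 library with the lowest macrophage marker sum. Without H24 replicate 3 the H24/NC differences of OLR1, HAVCR2 and MSR1 were 2.45, 3.59 and 3.69, with adjusted p = 0.0109, 0.0197 and 0.00974.

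Among other bridging molecules and eat-me ligands, 8 of 11 were called higher in H24/NC and 6 of 11 in H8/NC. C3, the complement protein that coats dying cells, was at 22.4 to 31.1 FPKM in NC, at 141 to 220 in H8 and at 202 to 930 in H24. It differed by 2.82 in H8/NC (adjusted p = 0.0206), the only gene of the 77 past the adjusted threshold with all libraries, and by 4.10 in H24/NC (adjusted p = 0.132). APOE, the lipoprotein ligand made by macrophages, was higher in H24/NC by 5.54, and C1QC, a chain of complement C1q, by 5.09 (adjusted p = 0.132 for both). Without H24 replicate 3 the differences of C3, APOE and C1QC were 3.01, 3.83 and 3.33, each with an adjusted p under 0.01. The H24/NC differences of GAS6, PROS1 and MFGE8 lay between −0.13 and 0.53, or between 0.18 and 0.70 without H24 replicate 3, beside a median of 4.10 over the 11 other bridging molecules and 2.90 without that library. With all libraries those 11 ran from −1.41 for PTX3 to 5.75 for LGALS3. CALR (0.36) and THBS1 (0.37) lay within the range of GAS6, PROS1 and MFGE8. These were named after their values were seen.

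In the handling of engulfed cargo, 9 of 11 genes were called higher in H24/NC and 4 of 11 in H8/NC. ABCA1, the cholesterol exporter, was at 0.454 to 0.527 FPKM in NC, at 0.919 to 1.59 in H8 and at 4.36 to 15.5 in H24, again without overlap between groups. Its H24/NC difference was 4.08 (adjusted p = 0.129). ABCG1, a partner in cholesterol export, was higher by 3.77, and LIPA, the lysosomal acid lipase that frees cholesterol from its esters, by 3.39 (adjusted p = 0.132 and 0.135). Without H24 replicate 3 the differences of ABCA1, ABCG1 and LIPA were 3.28, 2.93 and 2.16.

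In engulfment signalling and phagosome maturation, 3 of 14 were higher in H24/NC, namely VAV1 (5.19), a Rac activator of blood cells, ELMO1 (1.45), a partner of DOCK1, and LAMP1 (1.28), a lysosomal membrane protein, of which VAV1 alone was called without H24 replicate 3. Find-me signals and receptors had 2 of 6 higher, CX3CR1 (3.78), the fractalkine receptor, and P2RY6 (3.504), a nucleotide receptor, at 2.58 and 2.15 without H24 replicate 3. In the list of restraint and shedding 1 of 7 was higher, SOCS1 (1.41, adjusted p = 0.356), a cytokine signalling inhibitor which was not called without H24 replicate 3 (adjusted p = 0.611). Phosphatidylserine exposure had 0 of 5 called in H24/NC, and in H8/NC XKR8, a scramblase, was the 1 gene of the 77 called lower (−1.23, adjusted p = 0.187), named after its value was seen.

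Of these lists, CD36, HAVCR1, MEGF10, SIRPA, SOCS3, SPHK1, GPR132 and NR1H2 had no row under their names and were not analysed here, and ADGRB1 and APOH fell below the filter, as did TIMD4 in H8/NC.

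**Figure D4:**
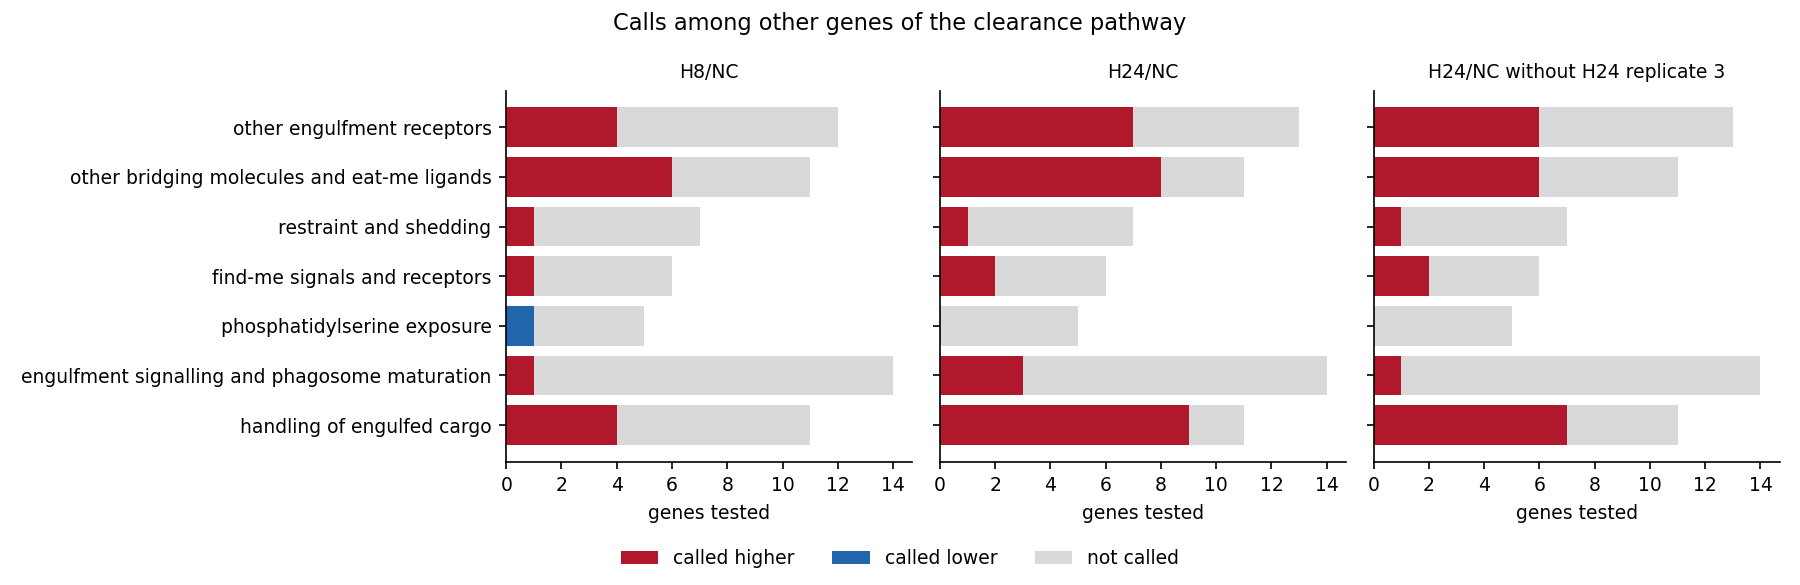
Genes called higher (red), called lower (blue) or not called (grey) in each of 7 lists of other clearance genes, for H8/NC, H24/NC and H24/NC without H24 replicate 3. The horizontal axis counts genes tested, and the largest red shares in H24/NC are 9 of 11 for the handling of engulfed cargo and 8 of 11 for bridging molecules, while phosphatidylserine exposure has 0 of 5.

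Measured library by library against the NC mean, on the scale of log2(FPKM + 0.1), the list split by gene and by library. In H24 replicate 3, MERTK was at 2.07 and STAB1 at 2.34, while MFGE8 was at −1.24 and GAS6 at −0.78. In H24 replicates 1 and 2, MERTK was at 0.20 and 0.35, MFGE8 at 0.04 and 0.49, and STAB1 still at 1.20 and 0.89. LRP1 was at 0.42, 0.65 and 0.82, and STAB1 and LRP1 were the genes of the list that stood above every NC library in each H24 library. The macrophage marker sum was at 3.18, 2.40 and 5.96 and the smooth muscle marker sum at −0.63, −0.06 and −2.82 in H24 replicates 1 to 3. The fibroblast marker sum was at 0.39, 1.03 and 0.81 in H8 and at −0.19 to 0.15 in H24, but this sum is mostly collagen transcript, and of the 5 fibroblast markers 1 was called higher in H24/H8 and 0 lower.

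**Figure D5:**
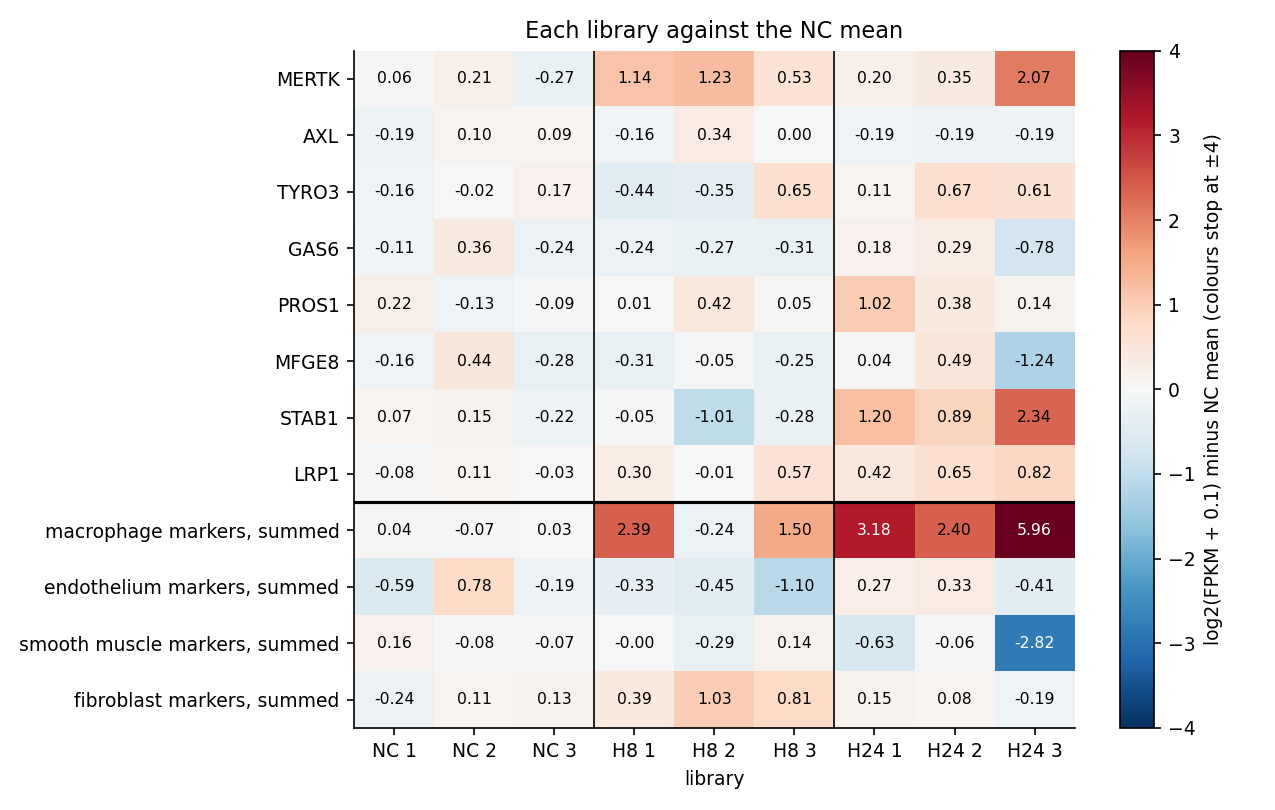
Each library's log2(FPKM + 0.1) minus the NC mean, for the 8 genes (above the line) and for the summed FPKM of 4 cell type marker lists (below it). Red is higher and blue lower than NC, with colours ending at ±4. The macrophage sum reaches 5.96 and the smooth muscle sum −2.82 in H24 replicate 3, where MERTK (2.07) and STAB1 (2.34) are red and GAS6 (−0.78) and MFGE8 (−1.24) blue.

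The genes whose pattern over the 9 libraries came closest to each member were found by the root mean square difference of log2(FPKM + 0.1) after centring each gene, among 9576 named genes with a mean of at least 1 FPKM. For MERTK these were TMSB10 (0.23), which encodes an actin-binding thymosin, and JDP2 (0.25), a transcription factor of the AP-1 family. For STAB1 they were BMF (0.20), a pro-apoptotic BCL2 family member, and SLC36A1 (0.21), an amino acid transporter of lysosomes. Without H24 replicate 3 the nearest genes were others, YWHAZ (0.15) and MAFG (0.17) for MERTK, and EEPD1 (0.19) and ACSL5 (0.20) for STAB1. With all libraries, 2178 of the 9576 genes lay closer to MERTK than the SD of MERTK itself (0.69), and 4262 lay closer to STAB1 than its SD (0.93), so a likeness of this kind was common. AXL was nearest to KDELR2 (0.10) and PHF10 (0.11), TYRO3 to ZFP1 (0.17) and MLYCD (0.19), and LRP1 to NANP (0.12) and SMURF1 (0.14). GAS6 was nearest to BRF2 (0.10) and CASTOR1 (0.12), PROS1 to TXNRD3 (0.10) and FER (0.20), and MFGE8 to RRAS (0.17) and PRX (0.18). No gene of the list was among the nearest of another with all libraries, but without H24 replicate 3 GAS6 was among the 2 genes nearest to MFGE8 (0.12).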

How the data were processed

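The study sequenced poly(A) RNA from the abdominal aorta, and the submitters' processing notes name HISAT2 2.0, StringTie 1.3.0 and Bowtie 0.12.2. Those notes also list the mouse build mm8 with no role, while the methods give Sscrofa11.1, on which the coordinates of the table lie. The annotation release and the strand setting are not given in the sources used here. The authors deposited an FPKM value for each gene and library, normalized for length and depth. They also deposited an estimated count, whole in the file and not normalized, whose derivation is not stated.

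All 9 libraries were grouped by their labels, and 0 columns lacked a sample. No pair of libraries agreed within sampling noise (lowest chi-square per degree of freedom 183). The counts were fitted in edgeR (version 4.0.16, under R 4.3.3), using TMM normalization and its two-sided quasi-likelihood test. Each fit used the 6 libraries of its groups and kept genes whose FPKM averaged 0.1 or more over them, and p-values were adjusted over all genes tested. Intervals are 95% intervals from the fitted standard error. The method was first tested on simulated data.

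The genes, the lists of other clearance genes and the markers were chosen with earlier results of these data known. Named are the 9 genes, of each list at most 3 genes called in H24/NC with the smallest p, and the 2 genes most like each member. Marker genes were summed. CCL21, LYVE1, FLT4, CSF3R, MMP8, S100A12, CD3E, FABP4, ADIPOQ, PLIN1, CIDEC and LEP were named after their values were seen. DESeq2 1.42.0, limma 3.58.1 on log2(FPKM + 0.1) or log2(FPKM + 1), other filters and scaling, 1 fit of all 9 libraries, a replicate block and leaving out each replicate were alternatives. Protein or nucleotide sequences were not used here.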

Additional observations from a re-analysis of the deposited data

Results flagged for a closer look

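By its group means, STAB1 lay on opposite sides of the NC mean at the 2 lengths of the diet. In FPKM, every H8 library lay below the NC mean of 4.54, at 4.37, 2.19 and 3.70, and every H24 library lay above it, at 10.5, 8.42 and 23.3. FPKM lacks the TMM scaling of the test, and the TMM factors were 0.958, 0.862 and 0.993 in H8 and 1.04, 0.999 and 1.04 in NC. H8 replicate 1 was close to the NC mean, so its side of that mean depends on the scale. The difference between the lengths, H24/H8, was 1.87 on the log2 scale (SE 0.43, edgeR p = 0.00336, adjusted p = 0.336, exact permutation p = 0.1), and 1.31 without H24 replicate 3. H8/NC alone did not pass, at −0.29 with adjusted p = 0.605, and the libraries of H8 overlapped those of NC. NT5DC2, which shares bases with STAB1 on the opposite strand, was higher than in NC at both lengths, by 1.11 in H8/NC and 1.02 in H24/NC. The part of these shared reads was not tested.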

How the results depend on the processing

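Over 14 alternatives for each comparison, STAB1 kept its call in H24/NC and in H24/H8 in all of them, at 1.03 to 1.87 and 1.31 to 2.10 on the log2 scale when each replicate was left out. MERTK in H8/NC kept its call except with limma, at 0.97 for log2(FPKM + 0.1) and 0.86 for log2(FPKM + 1), and without H8 replicate 2 (0.94). The number of the 8 genes called higher was then 0, where 3.17%, 1.41% and 4.11% of all genes were called higher. In H24/NC that number was 2 with DESeq2, with all 9 libraries in 1 fit, and without H24 replicate 1 or 2, since MERTK was then called. Of all genes, 10.4%, 10.6%, 10.6% and 12.1% were called higher in these settings. With each replicate left out the number ran from 1 to 2 in H24/NC, beside 6.49% to 12.1% of all genes. In H8/NC it ran from 0 to 1, beside 3.96% to 5.58%. The count past the adjusted threshold, an alternative set chosen after seeing the data, was 1 with DESeq2 in each comparison. Of all genes, 6.43% passed in H24/NC, 4.30% in H8/NC and 4.40% in H24/H8. Genes without a call turned sign as follows when each replicate was left out. GAS6 ran from −0.31 to 0.18 in H24/NC, −0.29 to 0.066 in H8/NC and −0.18 to 0.34 in H24/H8, and MFGE8 from −0.56 to 0.23, −0.26 to 0.19 and −0.50 to 0.32. TYRO3 ran from −0.23 to 0.35 and AXL from −0.017 to 0.33 in H8/NC, and in H24/H8 MERTK ran from −0.91 to 0.25 and PROS1 from −0.077 to 0.41. TYRO3 in H8/NC was −0.045 with limma at a pseudocount of 0.1 and −0.022 at 1. With the pseudocount of 0.1 the median of all genes shifted to −0.12 in H8/NC and 0.18 in H24/H8, and relative to it TYRO3 was at 0.07 and MERTK at 1.09 in H8/NC, while at 1 MERTK was at 0.94 relative to the median, under the fold threshold. With a replicate block, GAS6 in H24/H8 was −0.0096, the calls of STAB1 and MERTK stood, and MERTK in H24/NC was 0.83. The replicate numbers did not pair the libraries, because same-numbered libraries had deviations correlated at −0.05 to 0.08. The pathway count in H24/H8 was 4 in place of 21 without H24 replicate 3, an alternative added after seeing the data. The cause of these changes was not tested. Protein identity between the genes had been planned and was not run. With 3 libraries a group, depth did not limit the 8 genes, which had at least 765 counts, but it limited STAB2.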
